A study of Homo sapiens with 6 samples.

Results

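The genes described here are 9 members of the protein disulfide isomerase family and an oxidase. The 9 are P4HB, PDIA3, PDIA4, PDIA5, PDIA6, TXNDC5, TMX2, ERP27 and ERP29, and the oxidase, ERO1A, recharges P4HB. They were chosen because the series title names this enzyme family, and every probe annotated to one of the 10 symbols was taken, which gave 13 of the 47323 probes on the array. The cells were HepG2, an established line from a human liver tumour, given sorafenib or its solvent DMSO for 24 h, with 3 Illumina BeadChip arrays in each of the 2 groups. Sorafenib blocks RAF and several receptor tyrosine kinases and is used against liver cancer. The labels give its dose as 3 mM. The files cannot check that unit, and cell culture doses are usually micromolar. All cells were of a single line, and the labels do not say whether the replicates were separate cultures, so each p-value rests on array-to-array spread that may be technical.

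Proteins that leave the cell, or sit in its membrane, fold in the endoplasmic reticulum, where cysteine pairs are joined into disulfide bonds. Protein disulfide isomerases hand a disulfide to the folding protein, or exchange a wrong bond for a right one, through cysteine pairs in thioredoxin-like domains. The oxidase ERO1A takes the electrons back from P4HB and passes them to oxygen, which yields hydrogen peroxide. Liver cells secrete albumin, transferrin and other disulfide-rich proteins, so the folding machinery is in steady use there. Several of these genes are known targets of the unfolded protein response, the programme that raises folding capacity when unfolded protein accumulates.

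Across the series, the arrays had mean intensities of 739.2 to 1050, with 19440 to 20138 probes above background at a detection p under 0.05. The lowest intensity that counted as above background was 130.3 to 159.1, depending on the array. Of 8 hepatocyte markers, 7 had a probe above background on all 6 arrays, among them ALB with intensities of 16969 to 43706 over its 2 probes. HNF4A was not analysed here. Of 5 markers of blood, endothelial, stromal and squamous cells, none was above background on 3 or more arrays. After background correction, quantile normalization and log2, 20120 probes were tested, and 3364 of them, or 16.7%, passed an adjusted p of 0.05 in limma (7.27% higher and 9.45% lower with sorafenib). The share was 9.27%, 7.45% and 9.13% without DMSO replicates 1, 2 and 3, 9.21%, 7.27% and 11.6% without sorafenib replicates 1, 2 and 3, and 9.21% where arrays were only scaled to equal medians. The arrays carry the pooled RNA of a culture, so a change in each cell and a change in the mix of cells cannot be told apart.

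Of the 13 probes, 11 were above background on all 6 arrays, and they represent 9 of the 10 genes. The other 2, the only probe of PDIA3 and 1 of 3 probes of ERP29, were not above background on any array. PDIA4, TMX2 and the brighter TXNDC5 probe rose with sorafenib by about the same step, 0.38 to 0.41 on the log2 scale. The dim TXNDC5 probe differed by 0.22 and did not pass the test. ERP27 fell by 0.62, and P4HB, PDIA5, PDIA6, ERP29 and ERO1A did not pass the test. That makes 3 probes higher and 1 lower among 11 tested, or 27.3% and 9.09%, beside 7.27% and 9.45% of all probes. All probes here include those above background on only 3 arrays. With a detection p under 0.01 required on all arrays, 1792 of 15212 probes were higher and 2097 lower (25.6% together). In that fit 3 member probes were higher and 2 lower. The count of higher member probes was 1, 0 and 1 without DMSO replicates 1, 2 and 3, 2, 0 and 0 without sorafenib replicates 1, 2 and 3, and 0 under median scaling. The single lower probe stayed with DMSO replicate 3 left out, and the number was 0 with any other array left out and under median scaling. The 3 sorafenib arrays lay wholly above or wholly below the 3 DMSO arrays for 7 of the 11, or 63.6%, beside 38.9% of all probes. The median difference of the 11 was 0.12 on the log2 scale, and that of all probes was 0.01.

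**Figure D1:**
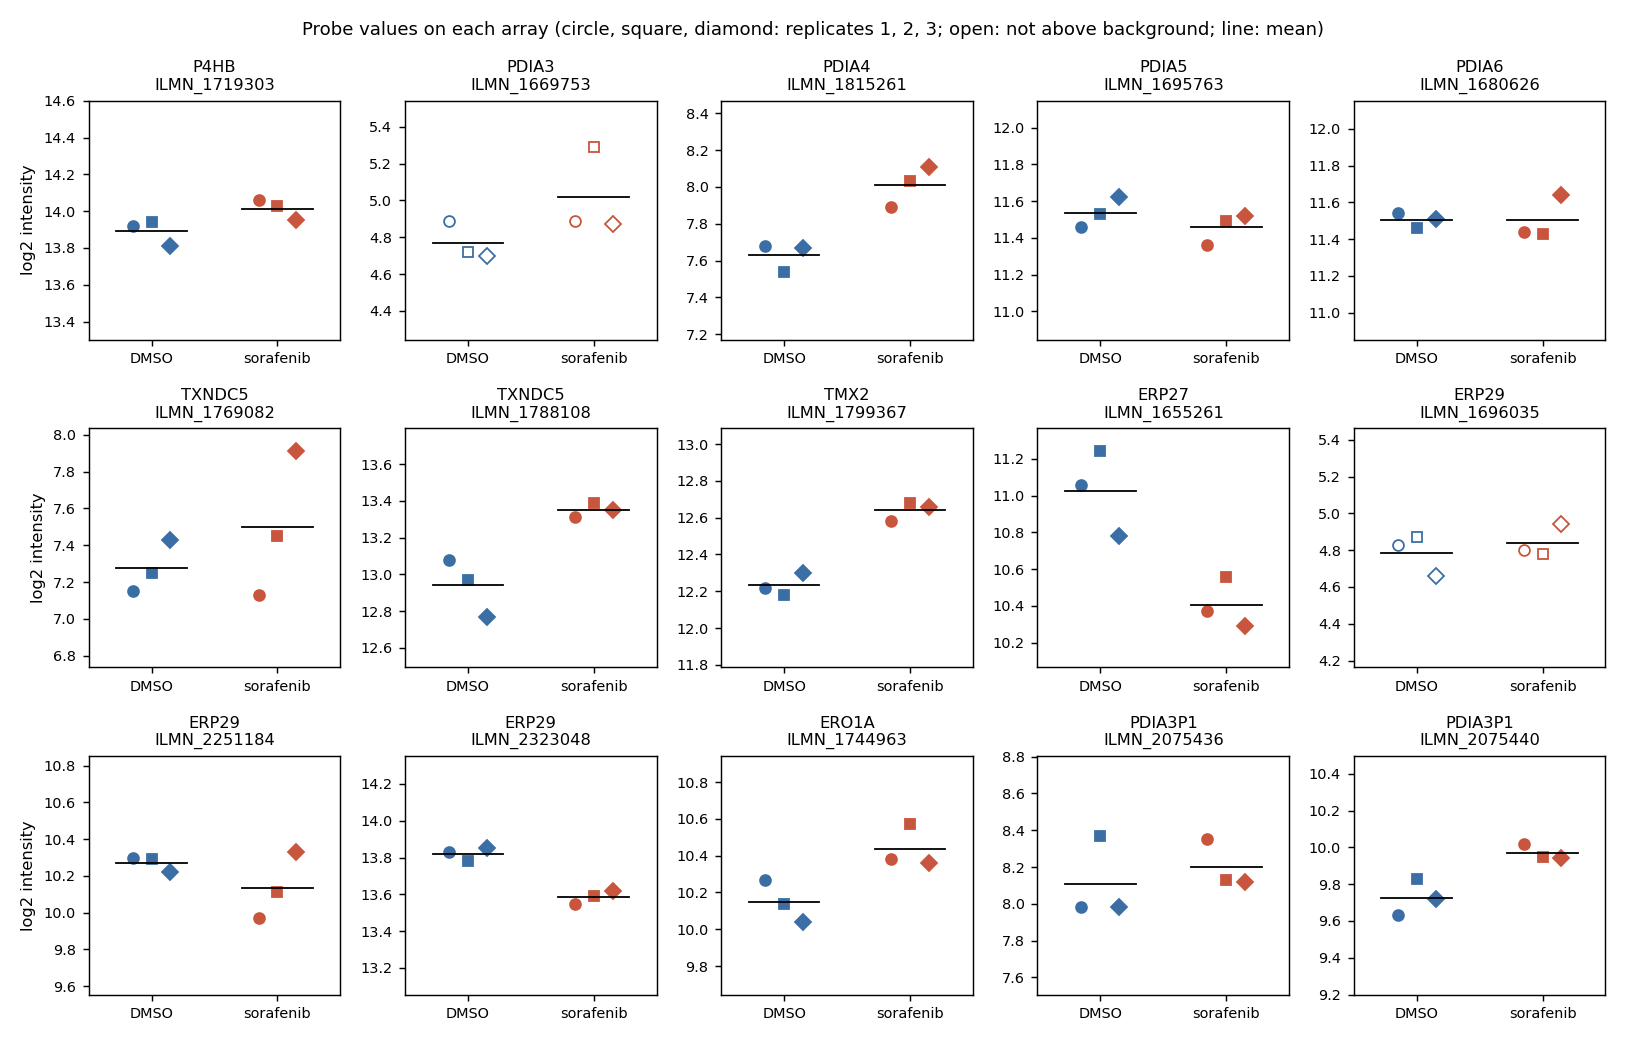
Normalized log2 intensity of the 13 member probes and of 2 probes of the pseudogene PDIA3P1 on each of the 6 arrays, each panel spanning the same height on its own log2 axis, with replicates as separate symbols, the group mean as a line and open symbols where the probe was not above background. Sorafenib arrays stand above DMSO for PDIA4, TMX2 and the TXNDC5 probe ILMN_1788108 and below it for ERP27. They also stand above for P4HB, ERO1A and PDIA3P1 ILMN_2075440 and below for ERP29 ILMN_2323048, which did not pass the test. The PDIA3 probe and the ERP29 probe ILMN_1696035 are open throughout.

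P4HB is the founding enzyme of the family, and it also serves as a subunit of collagen prolyl 4-hydroxylase and of the microsomal triglyceride transfer protein. Its probe gave log2 values of 13.92, 13.94 and 13.81 on the DMSO arrays and 14.06, 14.03 and 13.95 on the sorafenib arrays. The groups did not overlap, but the step between them was small. The difference was 0.12 ± 0.08 (SE, n = 3 in each group; adjusted p = 0.350 in limma), with a 95% confidence interval of -0.07 to 0.32. On a linear scale that interval runs from 0.951-fold to 1.25-fold. The probe did not pass under any of 18 other settings, in which its difference was 0.08 to 0.16.

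PDIA4, known as ERp72, is an enzyme with several active sites and a partner of the chaperone BiP. Its log2 values were 7.68, 7.54 and 7.67 with DMSO and 7.89, 8.03 and 8.11 with sorafenib. All 3 treated arrays were above all 3 controls. The probe was dim, with intensities of 253 to 417, so background correction weighs on its value. It rose by 0.38 ± 0.09 (SE, n = 3; adjusted p = 0.0357 in limma), a fold of 1.30 (95% confidence interval 1.12 to 1.52). Its difference was 0.25 with no background correction (adjusted p = 0.0295). Dropping DMSO replicate 1, 2 or 3 moved the adjusted p to 0.0757, 0.112 and 0.0770, and dropping sorafenib replicate 2 or 3 moved it to 0.108 and 0.0865. Median scaling gave 0.163, and testing all 47323 probes with no filter, those at background included, gave 0.0657.

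PDIA5 and PDIA6 are further enzymes of the family, and PDIA6, known as P5, works with BiP. PDIA5 read 11.46, 11.53 and 11.62 with DMSO and 11.36, 11.49 and 11.52 with sorafenib on the log2 scale, so the groups overlapped. The difference was -0.08 ± 0.09 (SE, n = 3; adjusted p = 0.556 in limma; 95% confidence interval -0.29 to 0.12), and it was -0.04 when DMSO replicate 3 or sorafenib replicate 1 was dropped and -0.12 when DMSO replicate 1 or sorafenib replicate 3 was. PDIA6 read 11.54, 11.46 and 11.51 with DMSO and 11.44, 11.43 and 11.64 with sorafenib. Here 2 treated arrays were below the controls and 1 was above them. The difference was -0.01 ± 0.09 (adjusted p = 0.977 in limma), its interval of -0.22 to 0.21 corresponds to 0.860-fold to 1.15-fold, and its sign turned with median scaling, with cyclic loess and without DMSO replicate 1, sorafenib replicate 1 or sorafenib replicate 2.

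TXNDC5, known as ERp46, is an enzyme with thioredoxin-like domains and was read by a pair of probes. The brighter probe, ILMN_1788108, gave log2 values of 13.08, 12.97 and 12.77 with DMSO and 13.31, 13.39 and 13.35 with sorafenib. The treated arrays were tightly grouped (SD 0.04, n = 3) and all above the more scattered controls (SD 0.16, n = 3). This probe rose by 0.41 ± 0.10 (SE, n = 3; adjusted p = 0.0374 in limma), a fold of 1.33 (95% confidence interval 1.12 to 1.57). The dim probe, ILMN_1769082, read 7.15, 7.25 and 7.43 with DMSO and 7.13, 7.45 and 7.91 with sorafenib. Its groups overlapped, since sorafenib replicate 1 was the lowest of all 6 values and sorafenib replicate 3 the highest. It differed by 0.22 ± 0.20 (adjusted p = 0.496 in limma), and by 0.01 when sorafenib replicate 3 was dropped and 0.40 when sorafenib replicate 1 was. The changes of the 2 probes differed by 0.19 (two-sided exact permutation test over the 6 arrays, p = 0.5, where the smallest possible is 0.1). For the brighter probe the adjusted p became 0.0941 and 0.0807 when DMSO replicate 2 or 3 was dropped, and 0.0808, 0.114 and 0.0816 when sorafenib replicate 1, 2 or 3 was. Median scaling gave 0.124, a test with no filter 0.0678, and the mean of both TXNDC5 probes, with a difference of 0.31, gave 0.0835.

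TMX2 is a member anchored in the membrane of the endoplasmic reticulum. It read 12.22, 12.18 and 12.30 on the log2 scale with DMSO and 12.58, 12.68 and 12.66 with sorafenib. Both groups were tight, with SDs of 0.06 and 0.05 (n = 3 each), and the gap between them was wider than either. TMX2 rose by 0.40 ± 0.08 (SE, n = 3; adjusted p = 0.0188 in limma), a fold of 1.32 (95% confidence interval 1.16 to 1.51). Between arrays of equal replicate number the difference was 0.35, 0.49 and 0.36. The adjusted p was 0.0583 and 0.0709 when DMSO replicate 1 or 2 was dropped, 0.0737 and 0.0513 when sorafenib replicate 2 or 3 was, and 0.101 under median scaling. Its size held at 0.38 to 0.44 over all 18 settings.

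ERP27 and ERP29 have thioredoxin-like folds but lack the paired active-site cysteines, so they bind client proteins or other family members without catalysing disulfide exchange. ERP27 read 11.06, 11.24 and 10.78 on the log2 scale with DMSO and 10.37, 10.56 and 10.29 with sorafenib. Every treated array was below every control. ERP27 fell by 0.62 ± 0.14 (SE, n = 3; adjusted p = 0.0272 in limma), to a fold of 0.651 (95% confidence interval 0.519 to 0.817). That difference was larger in size than those of 91.8% of all probes tested, and arrays of equal number differed by -0.69, -0.68 and -0.49. Leaving out DMSO replicate 1 or 2 took the adjusted p to 0.0795 and 0.0784, leaving out sorafenib replicate 1, 2 or 3 took it to 0.0764, 0.0535 and 0.0694, and median scaling to 0.0815. The difference itself was -0.74 to -0.51 in the 18 settings.

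ERP29 had 3 probes, and those above background both read lower on average with sorafenib, short of the threshold. ILMN_2323048 gave log2 values of 13.83, 13.78 and 13.85 with DMSO and 13.55, 13.59 and 13.62 with sorafenib. Its groups did not overlap and each had an SD of 0.04 (n = 3). The difference was -0.23 ± 0.07 (SE, n = 3; adjusted p = 0.0787 in limma), a fold of 0.852 (95% confidence interval 0.753 to 0.963). It passed with no background correction (adjusted p = 0.0306), with the authors' processed values (0.0352), with the stricter filter on dim probes (0.0447), with 1 probe per gene (0.0463) and with a variance trend and robust eBayes (0.00950). ILMN_2251184 read 10.30, 10.29 and 10.22 with DMSO and 9.97, 10.11 and 10.33 with sorafenib, where the highest treated array was above every control. It differed by -0.13 ± 0.11 (adjusted p = 0.446 in limma), by -0.05 when sorafenib replicate 1 was dropped and by -0.23 when sorafenib replicate 3 was. Its change differed from that of ILMN_2323048 by 0.10 (two-sided exact permutation test, p = 0.4, where the smallest possible is 0.1). The remaining probe, ILMN_1696035, had intensities of 87 to 116 and detection p-values of 0.482 to 0.903.

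ERO1A, the oxidase, is known to be induced by low oxygen as well as by the unfolded protein response. It read 10.27, 10.14 and 10.04 on the log2 scale with DMSO and 10.38, 10.57 and 10.36 with sorafenib. The groups did not overlap, though the highest control and the lowest treated array were close. The difference was 0.28 ± 0.10 (SE, n = 3; adjusted p = 0.107 in limma), a fold of 1.22 (95% confidence interval 1.03 to 1.44). The unadjusted p was 0.0283, and the adjusted p passed with array weights (0.0485) and with a variance trend and robust eBayes (0.0410).

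PDIA3, known as ERp57, works with the lectin chaperones calnexin and calreticulin on glycoproteins. Its single probe had intensities of 115, 101 and 90 with DMSO and 118, 142 and 112 with sorafenib. Detection p-values were 0.144 to 0.839, so no array rose above background and no difference was tested. From a probe at background alone, expression of PDIA3 cannot be judged. A pair of probes annotated to PDIA3P1, a processed pseudogene derived from PDIA3, was above background on all 6 arrays. ILMN_2075440 had intensities of 749 to 1303 and differed by 0.24 ± 0.09 on the log2 scale (SE, n = 3; adjusted p = 0.104 in limma), and ILMN_2075436 had 294 to 451 and differed by 0.09 ± 0.13 (adjusted p = 0.701). Whether these probes also bind the PDIA3 transcript was not tested.

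**Figure D2:**
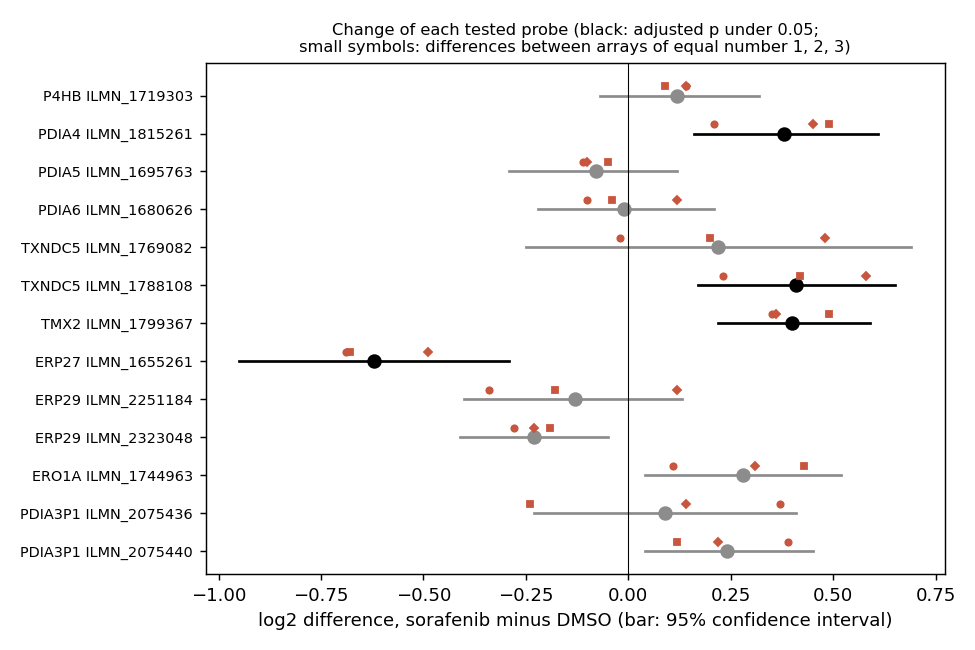
Log2 difference, sorafenib minus DMSO, for the 11 tested member probes and 2 probes of PDIA3P1, with 95% confidence intervals, black where the adjusted p was under 0.05, and small symbols for the differences between arrays of equal replicate number. TMX2, PDIA4 and the brighter TXNDC5 probe lie near 0.40, ERP27 at -0.62, and the interval of PDIA6 is centred at -0.01.

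**Figure D3:**
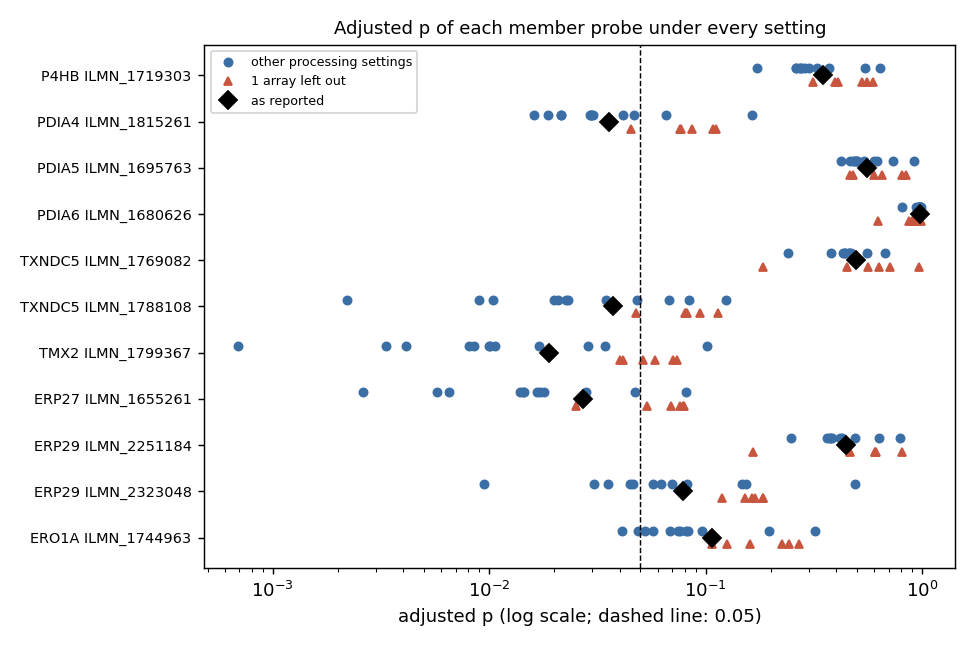
Adjusted p of each member probe on a log axis, as reported (diamond), with 1 array left out (triangles) and under the other processing settings (circles), with a dashed line at 0.05. For PDIA4, TXNDC5 ILMN_1788108, TMX2 and ERP27 the points straddle the line. They also do for ERP29 ILMN_2323048 and ERO1A, whose diamonds lie to the right, while P4HB, PDIA5 and PDIA6 stay to the right of it throughout.

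The promoters of these genes were read in RefSeq windows of 300 bases on GRCh38.p14, 250 before to 50 after each annotated start, because several family members are known targets of the unfolded protein response. The table held 11 windows for 8 of the 10 genes, with PDIA3 and ERP27 not analysed here. The ER stress response element was searched as CCAAT and CCACG 9 bases apart, its second form as ATTGG and CCACG 1 base apart and the unfolded protein response element as TGACGTGG, each on both strands. PDIA6 held the first element in 1 of its 2 windows, at -86 to -68 from the start, a sequence present in 0.0769% of 35116 promoter windows. TXNDC5 held TGACGTGG in 1 of its 2 windows, at -92 to -85 from the start, beside 0.729% of all windows. No match of these 3 motifs was in the windows of P4HB, PDIA4, PDIA5, TMX2, ERP29 and ERO1A, and the second form was in none of the 11, beside 0.0541% of all windows. ACGTG, the core of the hypoxia response element, was in 6 of the 11 windows, ERO1A and TXNDC5 among them, and in 21.4% of all windows. In TXNDC5 it lies within TGACGTGG, so those are the same bases. The windows of PDIA6 and TXNDC5 that hold a match are shown with it in capitals. The window of HSPA5, which encodes BiP, stands beside them because that gene rose the most among the related genes, and the upstream window of PDIA4 because that gene rose without a match.
PDIA6, chr2:10812736-10813035, minus strand: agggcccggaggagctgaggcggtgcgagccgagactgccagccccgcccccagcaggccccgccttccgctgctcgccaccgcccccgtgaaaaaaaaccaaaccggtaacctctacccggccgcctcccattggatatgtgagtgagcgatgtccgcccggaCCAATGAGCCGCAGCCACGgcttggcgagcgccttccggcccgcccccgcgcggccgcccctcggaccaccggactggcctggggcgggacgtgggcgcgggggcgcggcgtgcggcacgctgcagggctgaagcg
TXNDC5, chr6:7910028-7910327, minus strand: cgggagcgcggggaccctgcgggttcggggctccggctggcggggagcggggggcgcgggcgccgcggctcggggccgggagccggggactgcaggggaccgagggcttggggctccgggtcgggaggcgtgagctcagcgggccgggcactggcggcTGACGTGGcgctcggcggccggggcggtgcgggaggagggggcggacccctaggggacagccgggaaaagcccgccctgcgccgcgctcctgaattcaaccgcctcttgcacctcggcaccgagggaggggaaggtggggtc
HSPA5, chr9:125241294-125241593, minus strand: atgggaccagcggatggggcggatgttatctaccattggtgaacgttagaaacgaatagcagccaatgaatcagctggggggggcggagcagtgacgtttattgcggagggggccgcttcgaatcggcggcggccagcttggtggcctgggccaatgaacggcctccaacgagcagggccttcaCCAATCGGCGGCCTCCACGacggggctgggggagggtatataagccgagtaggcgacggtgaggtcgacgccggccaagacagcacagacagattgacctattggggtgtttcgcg
PDIA4, chr7:149028441-149028740, minus strand: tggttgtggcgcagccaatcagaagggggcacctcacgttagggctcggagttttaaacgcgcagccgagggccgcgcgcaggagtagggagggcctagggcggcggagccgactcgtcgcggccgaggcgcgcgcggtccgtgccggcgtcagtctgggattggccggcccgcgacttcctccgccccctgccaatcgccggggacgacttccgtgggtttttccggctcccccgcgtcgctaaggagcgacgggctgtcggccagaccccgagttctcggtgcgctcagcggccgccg
A match says that these letters are present, and no factor's binding was measured. Sites that differ from a motif at any fixed base were not counted, so a window without a match may still hold such a site. PDIA6, with the match, differed by -0.01. HSPA5, picked for its rise, has a match at -66 to -48 and a log2 difference of 0.78 ± 0.09 (SE, n = 3; adjusted p = 0.00414 in limma). Other related genes with a match of the 3 motifs include SDF2L1, HYOU1, HSP90B1, CRELD2 and XBP1, which rose. They also include CANX, CALR, ERO1B, TXNDC11 and DNAJC10, which did not pass the test. SELENOS, UGGT2, DNAJB11, MANF, DNAJC3 and DNAJB9 rose without a match. Whether a match bears on the change was not tested.

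**Figure D4:**
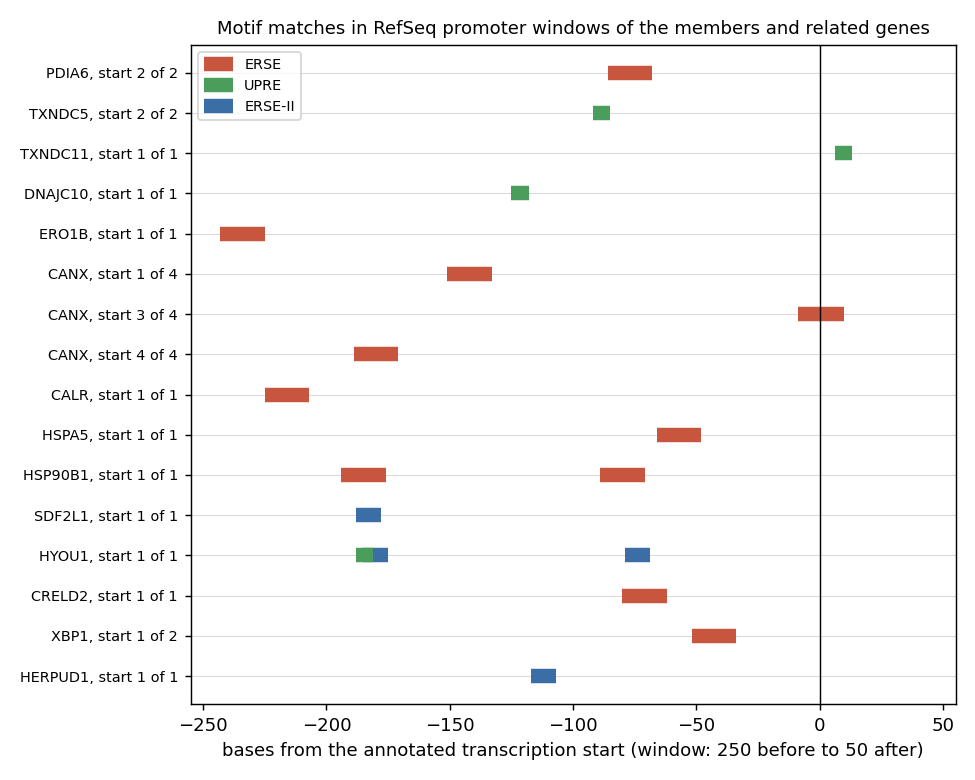
Positions of the ER stress response element (ERSE), its second form (ERSE-II) and the unfolded protein response element (UPRE), in bases from the annotated start, in each RefSeq promoter window of the members and related genes that holds one. Among the members only PDIA6, at -86 to -68, and TXNDC5, at -92 to -85, have a match, and the 3 windows of CANX show the same bases counted from different starts.

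Relatives and partners of these enzymes were read from 6 lists with 64 genes, of which 54 had a probe tested, 13 rose and 4 fell. That is 24.1% and 7.41%, beside 8.44% and 11.6% of all 11542 genes taken in the same way, and 9 of the 13 rises were in 1 list, BiP and its partners. Treated and control arrays did not overlap for 31 of the 54, beside 44.9% of all genes. Only 2 fell when DMSO replicate 1, 2 or 3 or sorafenib replicate 1 or 3 was dropped or no filter was applied, and 1 under median scaling. Each gene was represented by its tested probe with the highest mean level. Of 8 other family members tested from 14 listed, 1 fell and none rose in limma, where 2 had higher values with an unadjusted p under 0.05, and 0 to 1 rose in the 18 other settings. The one that fell was TXNDC16, by 0.51 ± 0.13 (SE, n = 3; adjusted p = 0.0382 in limma), and its adjusted p was 0.0786, 0.116 and 0.0862 when DMSO replicate 1, 2 or 3 was dropped and 0.105 and 0.0917 when sorafenib replicate 1 or 3 was. Median scaling gave 0.0858, no filter 0.0677 and array weights 0.0552. With no background correction TXNDC16 differed by -0.27. The remaining 7, TMX1, TMX3, TMX4, TXNDC11, TXNDC12, ERP44 and DNAJC10, differed by -0.02 to 0.29, and the median of the list was 0.10.

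Other enzymes that put in or take out disulfides, or use the peroxide that ERO1A makes, gave 2 rises and 1 fall among 12 tested. That is 16.7% and 8.33%, beside 8.44% and 11.6% of all genes, and the median difference was 0.09. QSOX2, a sulfhydryl oxidase of the secretory pathway, read 10.36, 10.33 and 10.08 on the log2 scale with DMSO and 10.82, 10.77 and 10.88 with sorafenib. It rose by 0.57 ± 0.10 (SE, n = 3; adjusted p = 0.0140 in limma) and passed in all 18 other settings. SELENOS, a selenoprotein of the machinery that exports misfolded proteins from the endoplasmic reticulum, rose by 0.44 ± 0.08 (adjusted p = 0.0139), and a further probe also by 0.44. Its remaining probe differed by -0.28 ± 0.35 (adjusted p = 0.619), and the mean of its probes by 0.20 (adjusted p = 0.298). For SELENOS the adjusted p was 0.0574 when sorafenib replicate 2 was dropped, which left QSOX2 as the 1 rise in this list, and 0.0947 under median scaling. GPX7, a peroxidase that uses hydrogen peroxide to oxidize P4HB, fell by 0.38 ± 0.10 at the edge of the threshold (adjusted p = 0.04996). Its adjusted p was 0.0701 with the replicate number as a block, 0.219 under median scaling and 0.0918 with no filter. Dropping DMSO replicate 1, 2 or 3 gave 0.121, 0.146 and 0.0507, and dropping sorafenib replicate 1, 2 or 3 gave 0.132, 0.130 and 0.0648. ERO1B, the paralog of ERO1A, was above background on 1 of 3 DMSO arrays and 3 of 3 sorafenib arrays and differed by 0.23 ± 0.09 (adjusted p = 0.130). Its difference was 0.09 with no background correction.

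The enzymes for which P4HB is a subunit did not pass the test in either direction. Of the 3 tested, P4HA1, a catalytic subunit of collagen prolyl 4-hydroxylase, differed by -0.08 ± 0.12 (SE, n = 3; adjusted p = 0.708 in limma; 95% confidence interval -0.37 to 0.21), by 0.03 when sorafenib replicate 3 was dropped, -0.03 when DMSO replicate 1 was and -0.16 and -0.14 when sorafenib replicate 1 or DMSO replicate 3 was. MTTP, the large subunit of the microsomal triglyceride transfer protein that loads lipid onto apolipoprotein B, differed by -0.29 ± 0.17 (adjusted p = 0.287; 95% confidence interval -0.69 to 0.11), by -0.17 when sorafenib replicate 1 was dropped and by -0.44 when DMSO replicate 1 was. P4HA2 differed by 0.09.

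Of 12 genes of the glycoprotein folding cycle and of PDIA3's partners, 1 rose and 1 fell (8.33% each, near the 8.44% and 11.6% of all genes), with a median difference of 0.11. UGGT2, of the family of sensors that reglucosylate misfolded glycoproteins, rose by 0.50 ± 0.09 (SE, n = 3; adjusted p = 0.0127 in limma), with an adjusted p of 0.0536 when sorafenib replicate 2 was dropped, which left 0 rises here, and 0.0807 under median scaling. Over the 18 other settings 0 to 3 genes of this list rose. TAPBP, tapasin, which pairs with PDIA3 in loading peptides onto MHC class I, fell by 0.58 ± 0.10 (adjusted p = 0.0130). Its second tested probe differed by -0.10 ± 0.10 (adjusted p = 0.529), and median scaling moved the first probe to an adjusted p of 0.0721. Calreticulin, CALR, read 10.81, 10.94 and 10.75 with DMSO and 11.14, 11.12 and 11.12 with sorafenib, a difference of 0.29 ± 0.08 that missed the threshold (adjusted p = 0.0590) and passed in 8 of 18 other settings. Calnexin, CANX, differed by 0.10 ± 0.09 (adjusted p = 0.470), by 0.06 when sorafenib replicate 2 was dropped and by 0.16 when sorafenib replicate 1 was.

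Of 10 tested genes for the chaperone BiP and its partners, 9 rose (90%, beside 8.44% of all genes), with a median difference of 0.57 on the log2 scale. The list was chosen with earlier results of these data known, so that contrast only describes these genes. The exception was the nucleotide exchange factor SIL1, at -0.05. HSPA5 read 9.55, 9.70 and 9.70 on the log2 scale with DMSO and 10.38, 10.55 and 10.36 with sorafenib, a fold of 1.72. SDF2L1, a partner of BiP's J-domain proteins, rose by 0.67 ± 0.08 (SE, n = 3; adjusted p = 0.00470 in limma), and the large chaperone HYOU1 by 0.65 ± 0.09 (adjusted p = 0.00583). Between 7 and 9 genes of this list rose in the 18 other settings. HSPA5, SDF2L1 and HYOU1, the 3 largest changes of this list, passed in all 18 other settings. Each of the 4 called member probes, with smaller changes, missed the threshold in 5 to 8 of them. The 3 genes were picked for their size, so the 2 sets are not alike.

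Among 9 sensors and factors of the unfolded protein response, 1 rose and 1 fell (11.1% each, likewise near the share of all genes), with a median difference of 0.10. XBP1, the transcription factor activated by the sensor IRE1, rose by 0.69 ± 0.10 (SE, n = 3; adjusted p = 0.00866 in limma), and its second probe rose by 0.75. DDIT3, which encodes CHOP, fell by 0.57 ± 0.08 (adjusted p = 0.00836). Both passed in all 18 other settings. In this list 2 genes rose when DMSO replicate 1 or sorafenib replicate 3 was dropped, and 1 to 2 rose and 1 to 3 fell over the 18 settings.

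**Figure D5:**
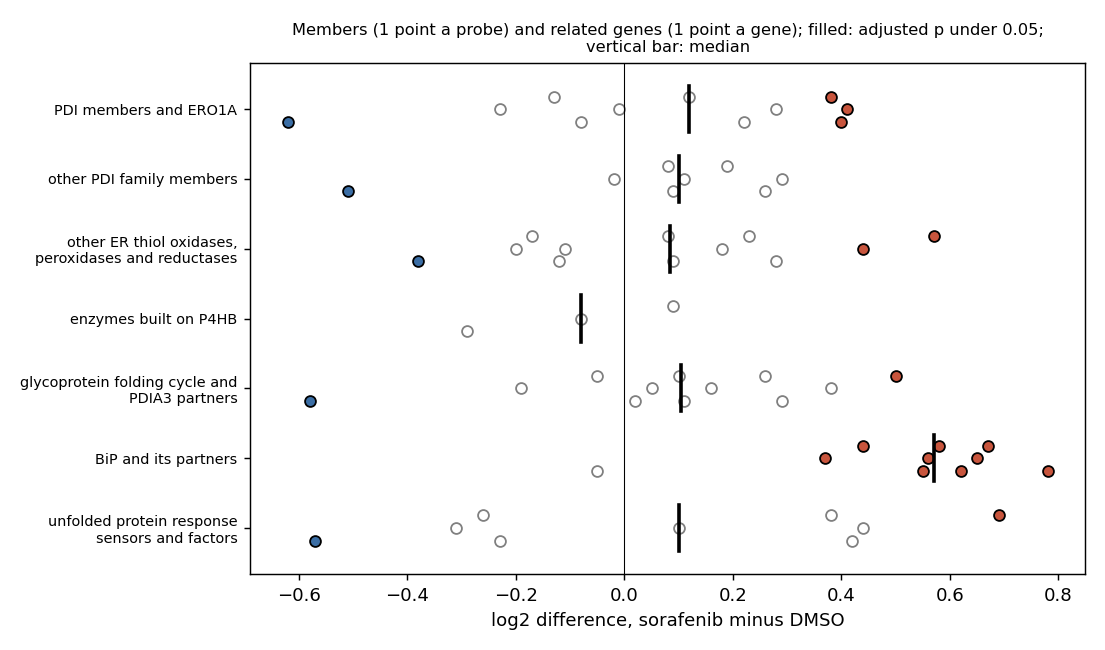
Log2 difference, sorafenib minus DMSO, of the 11 tested member probes and of the 54 tested genes in 6 related lists, filled where the adjusted p was under 0.05, with a vertical bar at each median. BiP and its partners are centred at 0.57 with 9 of 10 filled upward, and the member probes at 0.12 with 3 filled upward and 1 downward.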

How the data were processed

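Biotin-labelled cRNA from HepG2 was hybridized to Illumina BeadChips, per the labels' protocols. The authors deposited probe intensities, not normalized, with a detection p-value beside each, per the file headers. The deposited processed values are log2 intensities that match quantile normalization of those intensities within 0.0155. No source used here names the program that read the beads.

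Groups came from the sample titles. Background was corrected by limma's normexp model with negative controls inferred from detection p-values (offset 16), arrays were then quantile normalized, and values were put on the log2 scale. Probes with detection p under 0.05 on at least 3 of 6 arrays were kept. limma's lmFit and eBayes gave two-sided tests, adjusted by Benjamini and Hochberg's method across the 20120 probes. Symbols came from the platform annotation. Protein sequences and the RNA level of HERPUD1 were not analysed here. The members, lists and tests were chosen with earlier results of these data known. Named are all members, the 3 largest called changes per list with 1 opposite, and MTTP, P4HA1, ERO1B, HSPA5, CANX and CALR. SIL1, P4HA2, HSP90B1, CRELD2, DNAJB11, MANF, DNAJC3, DNAJB9 and the uncalled family members were named after their values were seen.

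As a check of pairing, arrays of equal number had deviations from their group means that correlated at 0.273, 0.237 and 0.315, against -0.289 to 0.0286 for unlike ones. From these data alone the numbers were taken as pairs, and only in the replicate block alternative. The differences, SEs and p-values given as reported come from the unpaired fit. Alternatives were other background, scaling, filter, probe and variance settings, the replicate block and leaving out each array. On simulated data for this comparison (20120 probes, 200 changed, 10 draws) the fit recovered 5.40% of probes changed by 0.4, 31.8% by 0.6, 64.0% by 1 and 92.8% by 2 on the log2 scale, with 3.90% false calls. Far fewer probes were changed there than the 3364 called in the data. The adjustment depends on that share, so the recovered shares need not hold for the data. R 4.3.3, limma 3.58.1, Python 3.11.15 and matplotlib 3.10.9 were used.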

Additional observations from a re-analysis of the deposited data

How the results depend on the processing

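Over 18 alternatives, the 4 called member probes kept their direction in all 72 fits and their side of the threshold in 46. Member probes called higher, 3 as reported, numbered 0 with median scaling and 1 with no filter, and 0 to 2 without 1 array. Member probes called lower, 1 as reported, numbered 0 with median scaling, 0 to 1 without 1 array, and 2 with no background correction, the authors' processed values, detection p under 0.01 on all arrays, 1 probe per gene, or eBayes with trend and robust. Related genes called lower, 4 as reported, numbered 1 with median scaling, 2 with no filter and 2 to 3 without 1 array. Over all probes, 734 were higher and 1119 lower with median scaling, 915 were higher with no filter, and 543 to 917 were higher and 877 to 1412 lower without 1 array. The difference of PDIA6 was 0.04 with median scaling and 0.01 with cyclic loess, and -0.07 to 0.03 without 1 array. That of P4HA1 was -0.16 to 0.03 without 1 array. Some of these fits had fewer arrays or more probes to adjust over, and why calls changed was not tested. With the replicate number as a block, 3 member probes were higher and 1 lower, and over all probes 1816 and 2249. Among the named genes GPX7 (adjusted p = 0.0701) was the only call the block changed, and among the lists it gave 2 rises in the glycoprotein list and 2 rises and 2 falls among the sensors and factors. Signal over background limits, among others, PDIA3, 1 probe of ERP29, ERO1B, PDIA4, the dim TXNDC5 probe and TXNDC16. The 3 arrays per group limit any change near 0.4.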
